A study of Mus musculus with 6 samples.

Results

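The genes described here are the CREB transcription factors Creb1, Crem and Atf1, the CREB-regulated transcription coactivators Crtc1, Crtc2 and Crtc3, the acetyltransferase Crebbp and the salt-inducible kinases Sik1, Sik2 and Sik3. They were the rows of the deposited count table whose mouse gene symbol equals 1 of these names, which gave 10 of 38293 rows. All 10 passed the low-count filter, as did 14642 genes in all. RNA-seq was done on primary cortical neurons of wild-type Swiss-Webster mice, taken at embryonic day 16 and kept to day 13 in vitro. The 3 control libraries had no treatment. The 3 NMDA libraries came from cultures bathed for 10 minutes in 50 µM NMDA, the agonist that names a class of calcium-permeable glutamate receptors, and collected after 50 further minutes without drug. No allele or agent other than NMDA sets the groups apart in the labels, and none of the 6 libraries is labelled with the etoposide that the shared growth protocol also mentions.

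CREB proteins bind cAMP response elements (CREs) near gene starts as pairs of basic leucine zippers. Calcium entry and cAMP act on them along 2 arms. Kinases phosphorylate CREB, which then recruits CREB-binding protein, the product of Crebbp. In parallel the phosphatase calcineurin dephosphorylates the CRTC proteins, which move into the nucleus and bind the CREB zipper. Salt-inducible kinases phosphorylate the CRTC proteins and hold them in the cytoplasm. Sik1 and Crem are themselves known as genes that CREB can switch on, and both can act back on the pathway as brakes, Crem through its short repressor isoform ICER. RNA counts do not report phosphorylation or the place of a protein in the cell.

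The libraries held 15417234 to 19183999 counted reads, and a member's count in 1 library ran from 172 for Crem to 1676 for Creb1. Neuron markers were high in every library: the 6 general markers, among them Tubb3, Map2 and Snap25, summed to 5646 to 6236 CPM (counts scaled to library size with TMM factors) in controls and 5441 to 6351 CPM in NMDA libraries. The cultures also held other cells. The 10 astrocyte markers summed to 2196 to 2864 and 2368 to 3606 CPM, the 8 oligodendrocyte-lineage markers to 527.5 to 1031 and 646.2 to 1008 CPM, and the 6 microglial markers to 3.17 to 4.61 and 3.82 to 4.16 CPM. Replicate 1 stood apart in both groups, with the myelin gene Mbp at 65.9 CPM (control) and 58.4 CPM (treated) against 13.7 to 16 CPM in the other 4 libraries. In such bulk RNA, fewer cells of a type and less RNA per cell cannot be told apart.

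Sik1, the inducible member of the kinase family, rose 2.09-fold. Without treatment it stood at 12.8, 15.1 and 13.9 CPM and with NMDA at 30.1, 29.8 and 27.3 CPM, giving replicates 1, 2 and 3 in turn here and in all such lists. Every NMDA library lay above every control and the spread within each group was small. The means were 13.9 ± 1.14 and 29.1 ± 1.52 CPM (SD of 3 libraries), and the fitted log2 change was 1.06 ± 0.11 (SE), with a 95% interval of 1.76 to 2.48 on the fold scale. The adjusted p in edgeR's quasi-likelihood test with group as the only term was 0.0032. Sik1 was the 1 member called higher in that fit and no member was called lower. Over all 14642 genes tested the same fit called 0.376% higher and 0.0546% lower. At an unadjusted p under 0.05 it found 4 of the 10 members, against 13.7% of all genes, and DESeq2 and limma-voom also called Sik1 alone. Sik1 kept its call when each library was left out in turn, with an edgeR adjusted p of 0.0067 to 0.022.

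Sik2 and Sik3, the family members known as constitutive, had no call. Sik3, the most abundant member per length, read 62.6, 61.4 and 65.3 CPM without treatment and 64.5, 63.4 and 67.4 CPM with NMDA. The groups overlapped, although the small difference had the same sign in all 3 pairs of equal replicate number. Its log2 change was 0.04 ± 0.08 with a 95% interval of -0.13 to 0.22. Sik2 read 19.6, 16.8 and 17.8 CPM untreated and 18.8, 19.4 and 15 CPM treated. It was higher in 1 pair and lower in 2, with a log2 change of -0.03 ± 0.13 (95% interval -0.32 to 0.27). Of the exonic bases of Sik2, 15% also lie in exons of Ppp2r1b on the opposite strand, and since the strand setting of the counting is not given in the sources used here, part of its reads cannot be assigned with certainty.

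The log2 ratio of Sik1 to the sum of Sik2 and Sik3, each per kilobase of exon, was -1.82, -1.51 and -1.71 without NMDA and -0.60, -0.61 and -0.73 with it. All NMDA values were higher. The difference of 1.04 had a two-sided exact permutation p of 0.1, the smallest that 3 against 3 libraries allow (0.15 after Benjamini-Hochberg adjustment over the 3 ratios computed). Sik1 made up 23.8 ± 1.98% of the family's length-scaled level in controls and 39.0 ± 1.17% after NMDA (SD, n = 3), and the summed level was 11.4 ± 0.173 and 14.5 ± 0.331 CPM per kilobase.

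**Figure D1:**
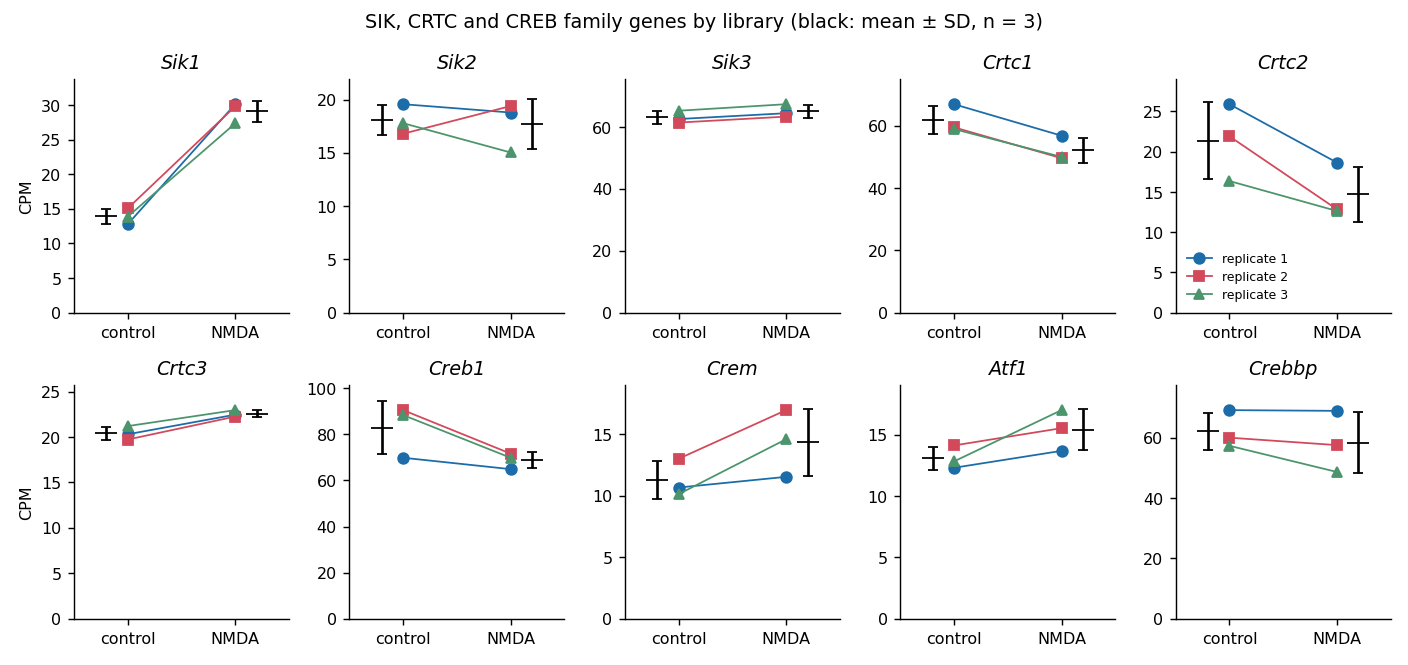
CPM of each gene (y axis, from 0) in control and NMDA libraries; points are libraries, lines join libraries of the same replicate number, and black bars give the mean ± SD of 3 libraries. Sik1 goes from 12.8 to 15.1 CPM in controls to 27.3 to 30.1 CPM after NMDA, while Sik3 stays between 61.4 and 67.4 CPM.

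On GRCm38 with GENCODE M21, Sik1 (ENSMUSG00000024042) lies on chromosome 17 from 31844250 to 31855804, Crtc1 (ENSMUSG00000003575) on chromosome 8 from 70382355 to 70439579 and Crem (ENSMUSG00000063889) on chromosome 18 from 3266048 to 3337748, all on the minus strand. Crtc2 (ENSMUSG00000027936) on chromosome 3 from 90254163 to 90264125 and Creb1 (ENSMUSG00000025958) on chromosome 1 from 64532645 to 64604548 are on the plus strand. All are protein-coding and reads were summed over each whole gene.

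Libraries of equal replicate number deviated together from their group means, so each gene was also fitted with the replicate number as a block, which compares NMDA with control within pairs. That fit called 5 of the 10 members, 2 higher and 3 lower, where it called 14% of all genes, 5.65% higher and 8.35% lower. The 5 were Sik1, Crem, Crtc1, Crtc2 and Creb1. They were also the 5 called without both libraries of replicate 1, the pair that stood apart in Mbp, with a log2 change of 0.99 for Sik1, 0.46 for Crem, -0.24 for Crtc1, -0.57 for Crtc2 and -0.33 for Creb1. With all libraries but no block the last 4 had an edgeR adjusted p between 0.29 and 0.39.

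Of the coactivators, Crtc2, the isoform best known from liver and abundant in many tissues, fell most within pairs. It stood at 25.9, 21.9 and 16.4 CPM without and 18.6, 12.8 and 12.6 CPM with NMDA. Each pair fell, by 0.47, 0.77 and 0.37 on the log2 scale, but NMDA replicate 1 lay above control replicate 3, so the groups overlapped. The within-pair log2 change was -0.54 ± 0.10 (SE; edgeR adjusted p = 0.0017), and without the block it was -0.54 ± 0.20 (edgeR adjusted p = 0.29). The untreated libraries alone had a coefficient of variation of 22.4%, the widest of the 10 genes. Crtc2 was called in all 6 fits with the block, among them each pair left out, GC and length offsets and DESeq2, and in none of the 13 alternatives without it.

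Crtc1, the coactivator best known from neurons, where it travels from synapse to nucleus, fell less but more evenly. Its levels were 66.9, 59.5 and 58.9 CPM untreated and 56.8, 49.6 and 50.0 CPM treated. Every NMDA library lay below every control, which was so for 11.1% of all genes. The pairs fell by 0.24, 0.26 and 0.24 on the log2 scale. The log2 change was -0.25 ± 0.07 within pairs (edgeR adjusted p = 0.026) and -0.25 ± 0.10 without the block (edgeR adjusted p = 0.31). The within-pair call was lost without both libraries of replicate 2 (edgeR adjusted p = 0.21), without those of replicate 3 (0.12) and in DESeq2 with the same block (0.16).

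Crtc3 lay on the other side. It read 20.3, 19.7 and 21.2 CPM without and 22.5, 22.3 and 23.0 CPM with NMDA, each treated library above each control, as in 8.18% of all genes. Such a separation in either direction held for Sik1, Crtc1 and Crtc3, 3 of the 10 members, and for 19.3% of all genes. Its log2 change of 0.14 ± 0.10 had an edgeR adjusted p of 0.56 without the block and 0.32 with it, so it had no call, and its 95% interval without the block ran from -0.08 to 0.37. Per kilobase of exon, Crtc3 made up 14.4%, 15.8% and 18.9% of the 3 CRTC genes in controls and 19.1%, 23.0% and 23.6% in NMDA libraries. Crtc2 made up 44.0%, 42.2% and 35.0% in controls and 38.2%, 31.9% and 31.2% in NMDA libraries. The ranges of Crtc3 do not overlap, though they nearly touch, and those of Crtc2 overlap. The summed level of the 3 was 12.8 ± 1.48 CPM per kilobase in controls and 10.5 ± 1.19 after NMDA. The log2 ratio of Crtc2 plus Crtc3 to Crtc1 differed by -0.06 (two-sided exact permutation p = 0.7), a sum in which Crtc2 and Crtc3 differed in opposite directions. The ratio depended on the length scaling: from raw counts it differed by 0.081, in the other direction, with a two-sided exact permutation p of 0.1, the smallest possible.

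**Figure D2:**
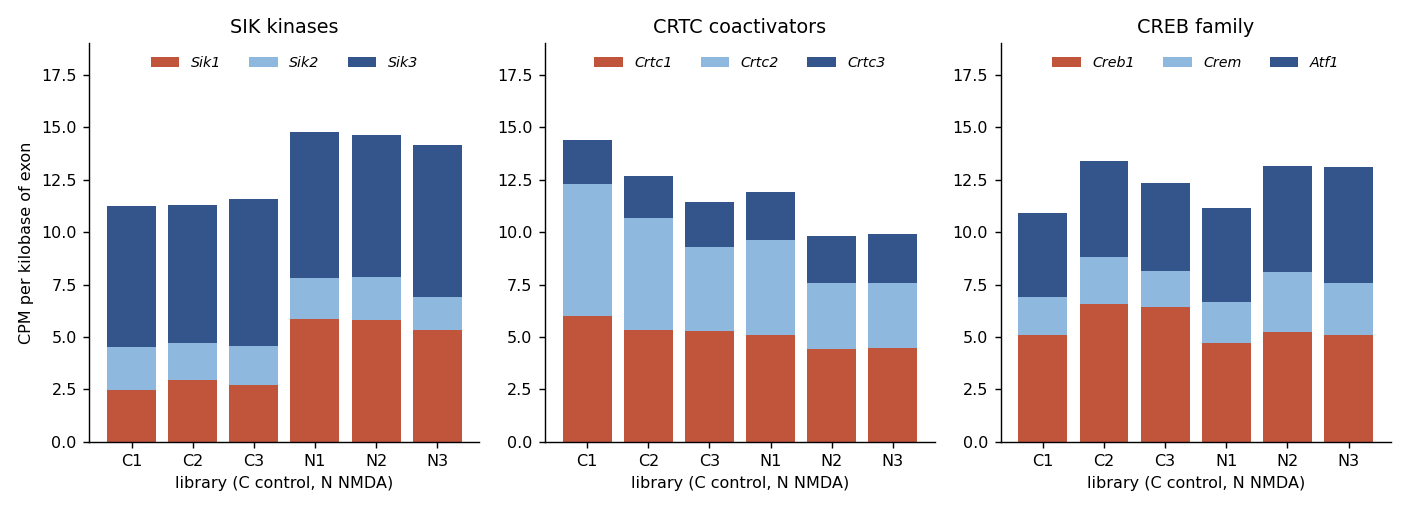
Stacked bars of CPM per kilobase of exon (y axis) for the SIK, CRTC and CREB genes in each library (x axis, C1 to C3 control and N1 to N3 NMDA). The SIK stacks are taller after NMDA through the Sik1 segment, the CRTC stacks range from 11.4 to 14.4 in controls and from 9.83 to 11.9 after NMDA, and the CREB stacks overlap.

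Among the CREB genes, Creb1, which encodes CREB itself, stood at 69.9, 90.6 and 88.4 CPM untreated and 64.9, 71.7 and 69.9 CPM treated. Control replicate 1 was as low as the NMDA libraries. The pairs fell by 0.11, 0.34 and 0.34 on the log2 scale, and the within-pair change was -0.26 ± 0.07 (edgeR adjusted p = 0.021), against -0.27 ± 0.11 without the block (edgeR adjusted p = 0.32). With offsets for GC content and length the within-pair change was -0.13 ± 0.07 and the call was lost (edgeR adjusted p = 0.21). At 39.6% GC in its longest transcript, Creb1 is the member lowest in GC. Leaving out both libraries of replicate 2 or of replicate 3 also ended the call (edgeR adjusted p = 0.24 and 0.16), as did DESeq2 with the block (0.11).

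Crem, whose internal promoter gives the repressor ICER, read 10.7, 13 and 10.1 CPM without and 11.5, 17 and 14.6 CPM with NMDA. Control replicate 2 exceeded NMDA replicate 1, so the groups overlapped, and the pairs rose by 0.11, 0.38 and 0.53 on the log2 scale. The change was 0.35 ± 0.11 within pairs (edgeR adjusted p = 0.047, just under the threshold of 0.05) and 0.35 ± 0.17 without the block (edgeR adjusted p = 0.39). Without the libraries of replicate 1 it was 0.46 ± 0.13 (edgeR adjusted p = 0.0078). The call was lost without those of replicate 2 (edgeR adjusted p = 0.23), without those of replicate 3 (0.26) and in DESeq2 with the block (0.23). Counts per gene pool all transcripts of Crem, so ICER was not measured apart from the long activator forms. Exons of the antisense gene Gm6225, which had 44 counts in all 6 libraries together, cover 8.01% of its exonic bases.

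Atf1, the third factor of the family, stood at 12.3, 14.1 and 12.8 CPM untreated and 13.7, 15.5 and 17 CPM treated. All 3 pairs were higher, the groups overlapped, and neither fit called it (0.24 ± 0.13; edgeR adjusted p = 0.45, and 0.15 with the block). Crebbp read 69.2, 60.0 and 57.3 CPM without and 68.9, 57.6 and 48.7 CPM with NMDA and had no call (-0.09 ± 0.13, 95% interval -0.39 to 0.20; edgeR adjusted p = 0.79). The log2 ratio of Crem to Creb1, per length, was -1.49, -1.58 and -1.91 in controls and -1.27, -0.86 and -1.04 in NMDA libraries. It was higher in every NMDA library by a mean of 0.60, with the smallest two-sided exact permutation p possible, 0.1 (0.15 after adjustment over the 3 ratios). The difference was 0.22 in pair 1, 0.72 in pair 2 and 0.87 in pair 3. The summed level of Creb1, Crem and Atf1 was 12.2 ± 1.25 and 12.5 ± 1.15 CPM per kilobase.

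**Figure D3:**
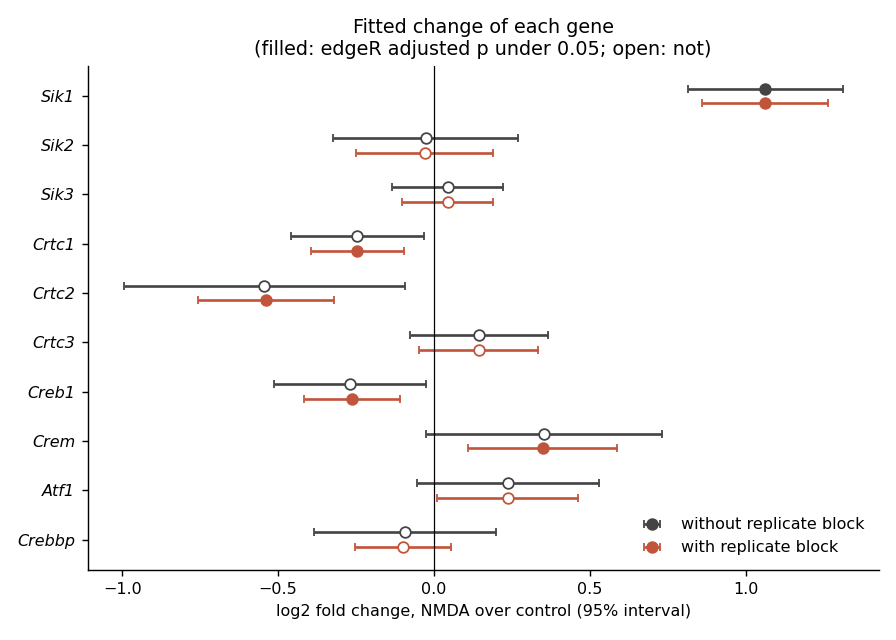
Fitted log2 fold change of NMDA over control (x axis) with its 95% interval for each gene, without the replicate block (grey) and with it (red); filled points had an edgeR adjusted p under 0.05. Sik1 at 1.06 is filled in both fits, and Crtc1, Crtc2, Creb1 and Crem are filled with the block alone.

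Over the 10 genes the median log2 change was 0.009, against -0.005 over all tested genes, with 2 called higher and 3 lower within pairs. Some cell-type markers were also called in the same within-pair fit, which called 5.65% of all genes higher and 8.35% lower. Of the 10 astrocyte markers 7 were called higher and 0 lower, and of the 8 oligodendrocyte-lineage markers 1 was called lower. Of the 6 general neuron markers 2 were higher and 0 lower, and of the 6 excitatory markers 1 was higher (Neurod2). Of the 6 inhibitory markers 0 were called, and none of these lists had a call without the block. The within-pair shares called of the oligodendrocyte-lineage (12.5%) and excitatory markers (16.7%) were near the 14% of all genes. The 6 endothelial and mural markers summed to 91.6 to 132 CPM in controls and 123 to 244 CPM in NMDA libraries, and 4 were tested. The 2 higher within pairs were Acta2 (mean 52.5 and 80.1 CPM) and Tagln (47 and 76.7 CPM), which made up most of the sum. Pecam1 and Pdgfrb had no call, with within-pair log2 changes of -0.23 and 0.23. Cdh5 was not tested, nor was Cldn5, which was at 0 in all libraries. The 6 markers of cycling progenitors summed to 529 to 705 and 562 to 827 CPM, also with 2 higher within pairs, Nes and Sox2. Mki67, Top2a, Cdk1 and Pax6 had no call, with within-pair log2 changes of 0.05, 0.05, 0.12 and 0.06. The part of these markers in the within-pair changes of Crtc1, Crtc2, Creb1 and Crem was not tested.

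**Figure D4:**
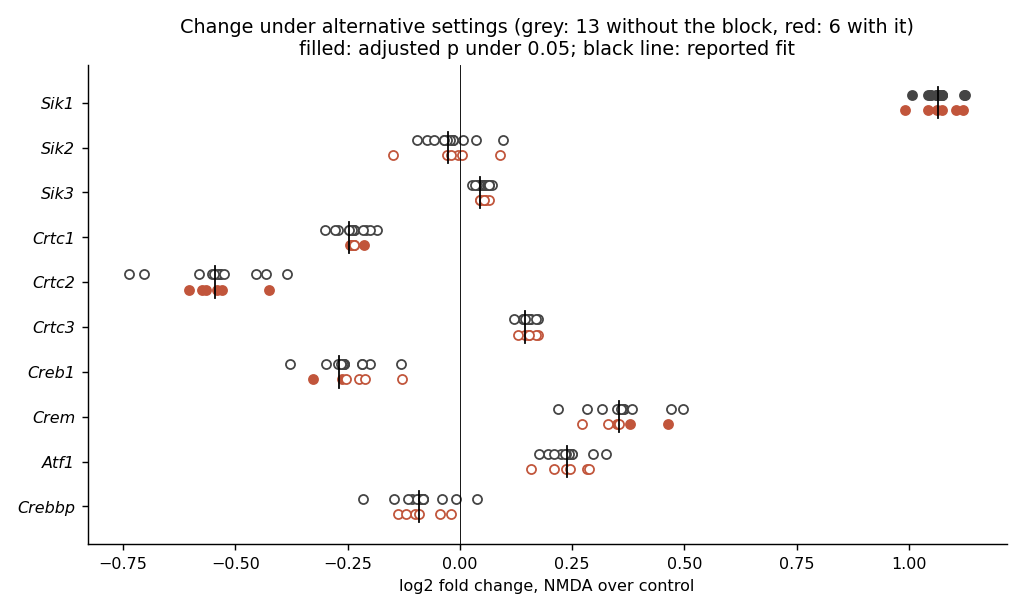
Log2 fold change of each gene (x axis) under 13 alternatives without the replicate block (grey) and 6 with it (red), filled where the adjusted p was under 0.05; the black line is the value without the block. Sik1 ranges from 0.99 to 1.13 and is filled throughout, Crtc2 is filled throughout with the block, and Sik2 and Crebbp lie on both sides of 0.

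Levels could be ranked once divided by exonic length, on the scale of CPM per kilobase of annotated exon. The union of exons counts sequence that a neuron's main isoform may lack, so the ranks are approximate. In controls the order was Sik3 (6.77 ± 0.211), Creb1 (6.04 ± 0.827), Crtc1 (5.52 ± 0.398), Crtc2 (5.22 ± 1.17), Crebbp (4.59 ± 0.458), Atf1 (4.27 ± 0.307), Sik1 (2.71 ± 0.222), Crtc3 (2.07 ± 0.0752), Crem (1.91 ± 0.260) and Sik2 (1.89 ± 0.147; SD, n = 3). Neighbours overlapped from Creb1 down to Atf1 and from Crtc3 down to Sik2. Sik1 thus had a gap on each side in controls. After NMDA, Sik1 was second at 5.67 ± 0.296, below Sik3 (6.98 ± 0.222) and overlapping with Atf1 (5.03 ± 0.544), while Crtc2 was seventh at 3.59 ± 0.834. Creb1 (5.01 ± 0.254), Crtc1 (4.66 ± 0.363) and Crebbp (4.31 ± 0.751) lay between them with overlaps, and Crem (2.44 ± 0.462), Crtc3 (2.29 ± 0.0372) and Sik2 (1.86 ± 0.248) remained the lowest.

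The genes whose pattern over the 6 libraries was most like that of Sik1 were found by the root mean square difference of log2 CPM after each gene's own mean was removed, among 12711 genes. They were Btg2, an antiproliferative immediate early gene (0.11), Trib1, a pseudokinase (0.12), Jun, a component of AP-1 (0.15), and Ero1lb, an oxidase of the endoplasmic reticulum (0.16). Btg2 averaged 15.3 ± 0.888 CPM without and 32.2 ± 5.28 CPM with NMDA, and Trib1 10.2 ± 0.774 and 23.1 ± 2.51 CPM. A smaller difference means a closer likeness, and with 2 groups of libraries any gene with a similar size of change comes out close.

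Promoter sequences were searched for the CREB binding motif, to show which of these genes carry it near their start. RefSeq promoters on GRCm38.p6, from 250 bases before to 50 after the start, were at hand for 7 members; Crem, Crtc2 and Sik1 had no entry. The full CRE, TGACGTCA, and its core, TGACG, which the full site contains, were searched on both strands. None of the 7 held a full CRE, which 1.79% of all 32851 promoters did. The core occurred in 3 of the 7 (Sik3, Atf1 and Sik2) and in 20.8% of all promoters. Printed here are Sik3 with 3 cores, Atf1 with 1, Crtc1 with none, and for comparison Btg2, the gene most like Sik1, with a full CRE. Btg2 is also 1 of the listed CREB target genes, and its full CRE says nothing of the promoter of Sik1, which had no entry. Each runs 5′ to 3′ on the gene's strand and ends before the start of the GENCODE gene, with motif matches in capitals.
Sik3 (chr9:46012570-46012819, plus strand): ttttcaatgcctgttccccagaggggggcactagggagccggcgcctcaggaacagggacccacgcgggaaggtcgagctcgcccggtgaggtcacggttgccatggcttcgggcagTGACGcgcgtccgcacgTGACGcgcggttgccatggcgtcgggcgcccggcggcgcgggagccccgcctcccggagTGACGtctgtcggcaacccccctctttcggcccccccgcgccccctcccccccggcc
Atf1 (chr15:100227609-100227818, plus strand): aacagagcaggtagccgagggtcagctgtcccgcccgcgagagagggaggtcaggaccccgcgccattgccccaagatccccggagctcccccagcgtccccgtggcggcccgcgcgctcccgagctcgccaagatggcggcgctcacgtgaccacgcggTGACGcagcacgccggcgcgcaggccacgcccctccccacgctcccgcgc
Crtc1 (chr8:70439580-70439823, minus strand): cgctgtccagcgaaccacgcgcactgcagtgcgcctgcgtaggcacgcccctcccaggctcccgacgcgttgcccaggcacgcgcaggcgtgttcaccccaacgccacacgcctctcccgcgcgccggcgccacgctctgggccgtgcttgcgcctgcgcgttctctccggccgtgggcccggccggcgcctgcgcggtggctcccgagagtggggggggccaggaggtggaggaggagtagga
Btg2 (chr1:134079156-134079405, minus strand): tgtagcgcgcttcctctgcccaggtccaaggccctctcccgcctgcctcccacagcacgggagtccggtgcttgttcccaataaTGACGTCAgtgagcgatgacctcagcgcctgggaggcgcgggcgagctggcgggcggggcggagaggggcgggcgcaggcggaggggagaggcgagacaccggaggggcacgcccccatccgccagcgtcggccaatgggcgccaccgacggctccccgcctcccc
Counted from the RefSeq start, the cores of Sik3 begin 133, 116 and 57 bases before it, that of Atf1 at 90 and the full CRE of Btg2 at 166. The printed sequence of Atf1 ends 41 bases before that start and that of Crtc1 ends 7 bases before it, where their GENCODE genes begin. As given above, neither Sik3 nor Atf1 had a call and Crtc1 fell within pairs. In the list of CREB target genes, 33 promoters of 23 genes were at hand, of which 21.2% held the full CRE and 63.6% the core. Some genes, such as Bdnf, entered with several promoters. The list is of textbook CREB targets, so these shares are a description and not a test. A match is not evidence of binding, and the lack of one in this window says nothing of sites elsewhere.

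Textbook target genes of CREB were also followed. Of the 30 listed, without Sik1 and Crem, 29 were tested, of which 16 were higher and 0 lower without the block, with a median log2 change of 1.07. Within pairs 21 were higher and 0 lower. Of all genes, 0.376% were called higher without the block and 5.65% within pairs. The list was chosen with earlier results of these data known, so its counts and median are a description and not a test. The change of Sik1, 1.06, was close to the median of the list. Among the genes called, similar changes were those of Rgs2 (1.05 ± 0.14), Btg2 (1.07 ± 0.14) and Dio2 (1.09 ± 0.16), which encodes the enzyme that activates thyroid hormone. Dio2 stood at 22.5, 15.1 and 16 CPM untreated and 37.1, 33.4 and 43.2 CPM treated, with no overlap. Dusp1, a phosphatase of MAP kinases, read 7.48, 8.89 and 6.59 CPM without and 20.4, 30.9 and 19.8 CPM with NMDA (log2 1.63 ± 0.20). Gadd45b, a stress sensor, had lower levels, at 1.79, 3.17 and 3.06 CPM and 8.45, 11.95 and 8.10 CPM (1.83 ± 0.25). The others called without the block were the early transcription factor genes Fos, Fosb, Junb, Egr1, Npas4, Nr4a1, Nr4a2 and Nr4a3, and Arc, Per1 and Nfil3. The 5 gained within pairs were the neuropeptide genes Sst (0.27 ± 0.07 on the log2 scale) and Vgf (0.53 ± 0.09), the clock gene Per2 (0.36 ± 0.10), Nptx2, a secreted synaptic pentraxin (0.73 ± 0.15), and Pde4d (0.34 ± 0.08). Vgf and Nptx2 kept that call with each pair left out, with GC and length offsets and in DESeq2, while Sst, Per2 and Pde4d lost it in at least 1 of these fits. Without control replicate 2 the count was 10 instead of 16, and Rgs2, Btg2, Nfil3, Arc, Gadd45b and Dio2 were the genes lost. Other libraries left out ended the call of Arc (control replicate 1), Gadd45b (NMDA replicate 2) and Dio2 (control replicate 3 or NMDA replicate 3).

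Enzymes that switch CREB and CRTC on had little common movement. Of 34 activators 0 were called without the block, 7 at an unadjusted p under 0.05 and 0 in DESeq2 or limma-voom, with a median log2 change of -0.005. The shares of all genes in edgeR were 0.43% called without the block and 13.7% at an unadjusted p under 0.05. Within pairs 3 activators were higher and 4 lower, beside 14% of all genes called. Ppp3ca, a catalytic subunit of calcineurin, rose within pairs by 0.44 ± 0.09 on the log2 scale, from 433, 500 and 626 CPM in controls to 702, 596 and 801 CPM. Prkaca, a catalytic subunit of protein kinase A, rose by 0.25 ± 0.07. Camk4, a nuclear kinase of CREB, fell by 0.33 and Camk2a by 0.39 within pairs on the log2 scale. The calcium-stimulated adenylyl cyclase gene Adcy1 fell by 0.31 and Adcy9 by 0.52.

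Of 20 tested genes that limit cAMP or CREB (median -0.037), 1 was higher without the block and 0 lower, beside 0.43% of all genes. It was Rgs2, a regulator of G-protein signalling that, like Pde4b and Pde4d, is also in the target list. Rgs2 went from 56.6, 63.4 and 76.9 CPM in controls to 114, 153 and 142 CPM in NMDA libraries (log2 1.05 ± 0.14, edgeR adjusted p = 0.0092), and it lost its call without control replicate 2. Within pairs 2 were higher and 3 lower: the cAMP phosphodiesterase gene Pde4d rose by 0.34 ± 0.08, while Pde4a fell by 0.37, Pde7a by 0.25 and Pde10a by 0.23 on the log2 scale.

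The list of kinases related to AMPK, to which the SIKs belong, also holds their activators. It had 1 of 17 genes higher and 0 lower without the block (median 0.028), beside 0.43% of all genes called. Nuak2 read 8.51, 9.45 and 8.34 CPM untreated and 18.8, 29.6 and 22.6 CPM treated, a log2 change of 1.44 ± 0.17 (edgeR adjusted p = 0.0056), and like Rgs2 it lost its call without control replicate 2. Its groups did not overlap, as with Sik1. Within pairs Nuak1 rose by 0.43 ± 0.10 and Stk11, which encodes LKB1, the kinase that activates the SIKs, by 0.30 ± 0.08. Prkaa2, an AMPK catalytic subunit, fell by 0.26 and Mark2, a polarity kinase, by 0.24 on the log2 scale within pairs.

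Of 23 tested relatives of CREB and further coactivators (median 0.008), 1 was higher without the block and 0 lower, beside 0.43% of all genes. It was Atf3, a stress-induced repressor of the same zipper class, which read 2.11, 0.834 and 0.844 CPM untreated and 10.5, 11.95 and 8.37 CPM treated (log2 3.01 ± 0.33, edgeR adjusted p = 0.0042). Within pairs the stress regulators Atf4 (0.33 ± 0.07) and Atf5 (0.32 ± 0.10) rose, and Ncoa3 (-0.48 ± 0.09), a nuclear receptor coactivator, Crebrf (-0.29 ± 0.09) and Crebzf (-0.25 ± 0.08) fell. The within-pair calls were 6 of 23 here and 5 of 17 for the AMPK-related kinases and their activators. They were 5 of 20 for the brakes and 7 of 34 for the activators of CREB and CRTC, beside 14% of all genes. Of the 22 named for these lists, 7 kept the within-pair call with each pair left out, with GC and length offsets and in DESeq2: Rgs2, Nuak2, Atf3, Camk2a, Ppp3ca, Pde4a and Ncoa3. The other 15 lost it in at least 1 of these fits, with a largest adjusted p from 0.052 for Adcy9 to 0.37 for Mark2. Pde7a, Pde10a, Prkaa2, Crebrf, Crebzf and Atf5 kept it in only 1 of the 5 fits, while Pde4d and Atf4 kept it in 4. Atf5 had an edgeR adjusted p of 0.75 without the block.

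**Figure D5:**
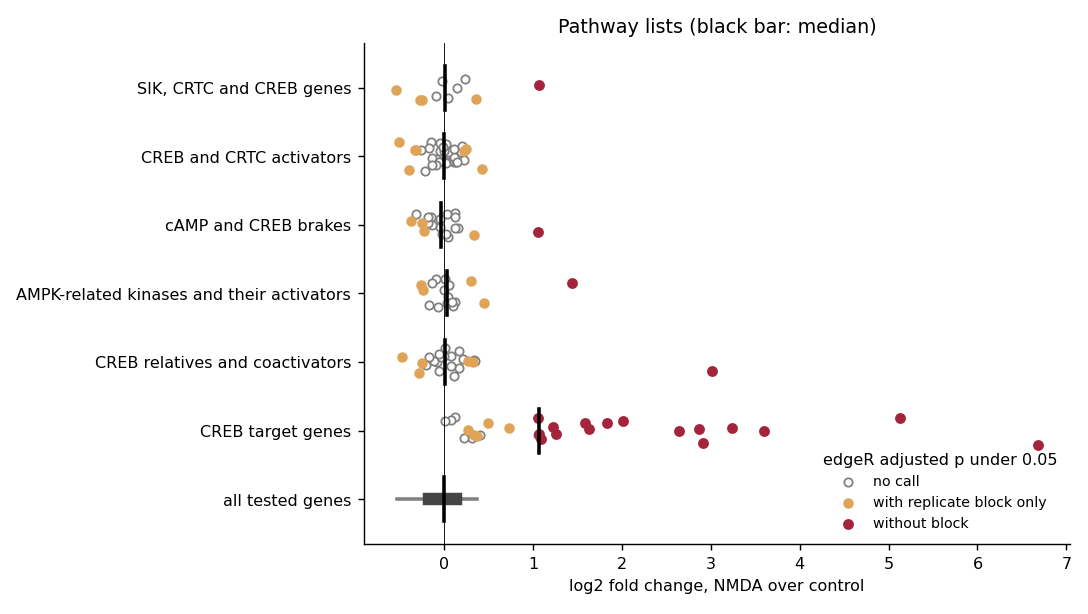
Log2 fold change of NMDA over control (x axis) for each tested gene of the lists (rows), with black bars at the medians; for all tested genes the thick bar spans the middle 50% and the thin line the middle 90%. The target list is centred at 1.07 while the other lists are centred near 0, each with at most 1 gene called without the block.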

How the data were processed

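RNA was measured in 3 control and 3 NMDA libraries. Per the labels' protocols, these were stranded poly(A) libraries read from one end. The protocol's number of biological replicates is below the 3 samples listed for a group. No label says that samples of a group are separate cultures, so a p-value reflects the spread among these libraries, which may be technical. The authors deposited raw counts for each gene. Tools named, per the submitters' processing notes, were HTSeq, TopHat and Trimmomatic (builds mm10 and GRCm38.p6); no version, annotation release or strand setting is stated. The 2153 rows with a blank symbol, at most 0.246% of a library's counts, were kept.

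Counts were fitted with edgeR 4.0.16 in R 4.3.3 (default filter with minimum count 10, TMM, robust quasi-likelihood F tests, group as the only term), with Benjamini-Hochberg adjustment over 14642 genes and a threshold of 0.05. SE is the log2 change divided by the square root of F. Same-numbered libraries had correlated deviations (0.54, 0.38 and 0.49), while other pairs of libraries gave -0.41 to -0.02. Deviations from a group's own mean cancel for each gene, so positive same-number values force the others to be negative on balance. The negative values are therefore no separate evidence of pairing. On the strength of the data alone, the replicate numbers were taken as pairs. The fit was repeated with the number as a block, which leaves 2 residual degrees of freedom instead of 4. DESeq2 1.42.0, limma 3.58.1, mgcv 1.9.3 (GC and length offsets) and scipy 1.17.1 were also used. Lengths, GC content and overlaps came from GENCODE M21. The members, lists and tests were chosen with earlier results of these data known. Every member is named; each list's genes are those past the threshold without the block and then, up to 6, those past it with the block. Sst, Vgf, Per2, Nptx2 and the single marker genes were added after their values were seen. Pde2a and Atf7 were not analysed here, and Pde4c, Creb3l4 and Crh were under the filter. Scripts were tested on simulated counts.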

Additional observations from a re-analysis of the deposited data

How the results depend on the processing

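Sik1 was called higher under all 19 alternatives, with a log2 change from 0.99 to 1.13, and no other member was called under any of the 13 without the replicate block. The block gave 2 members higher and 3 lower, and 828 and 1223 of all genes. In the lists it gave 3 and 4 activators, 2 and 3 brakes and 3 and 3 CREB relatives. Of the AMPK-related kinases and their activators, called kinases below, it gave 3 and 2. With each pair left out of that fit these were 1 to 2 and 1 to 3 members, 335, 705 or 1341 higher and 683, 758 or 1366 lower of all genes, 1 to 4 and 1 to 4 activators, 1 to 2 and 1 to 4 brakes, 1 to 2 and 0 to 2 kinases, and 1 to 4 and 1 to 2 relatives. Other settings were added after the data were seen. The block with GC and length offsets gave 2 and 2 members, 888 and 1112 of all genes, 3 and 4 activators, 3 and 1 brakes, 3 and 1 kinases and 3 and 2 relatives. DESeq2 with the block gave 1 and 1 members, 435 and 531 of all genes, 2 and 3 activators, 2 and 1 brakes, 2 kinases higher and 2 and 1 relatives. Offsets without the block gave 5 of all genes lower. Without it, 1 library left out gave 19 to 89 of all genes higher and 0 to 57 lower, 0 to 1 brakes and 0 to 1 kinases higher, and 10 to 16 targets. DESeq2 gave 148 higher and 157 lower, no low-count filter 130 and 130 with 1 relative lower, and DESeq2 size factors 5 lower. With 1 library left out the log2 change of Crebbp ran from -0.216 to 0.039 and that of Sik2 from -0.096 to 0.097, turning positive without NMDA replicate 3 (0.039 and 0.097) and, for Sik2, without control replicate 1 (0.035). Sik2 also turned positive with offsets (0.007, and 0.005 with the block) and with the block without replicate 3 (0.089). None was called and the cause was not tested. The ratio of Crtc2 plus Crtc3 to Crtc1 turned to 0.081 (exact permutation p = 0.1) from raw counts, where the shorter Crtc2 weighs less by construction. The members' counts, from 172 to 1676 a library, limit the precision, as do the 3 libraries a group.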
